A study of Mus musculus with 30 samples.

Results

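The change in RNA levels between library sets 0p5h and 24h was compared between BMDCs of 2 genotypes, which are dendritic cells (DCs) grown from mouse bone marrow. All libraries with these names were used, 20 of the 30 libraries in the series. They came from 10 numbered cultures, 5 WT and 5 *Cacnb3-/-*, each with 1 library in either set, so every culture gave 1 change of its own and the 5 *Cacnb3-/-* changes were set against the 5 WT changes. WT cells came from C57BL/6J mice and *Cacnb3-/-* cells from C57BL/6N mice per the study's methods, so the deletion and the substrain cannot be told apart. Cells of adult mice of both sexes were grown for 6 days in GM-CSF, and the protocol in the labels gave 500 µM ATP over 30 min to cells that were harvested at once or after 24 h. The treatment field of the labels reads vehicle for the libraries named 0p5h ATP with 24 h for those named 24h and 30 min of ATP for those named ctrl, so all sets are given under their library names, and neither ctrl nor 0p5h is taken as untreated. Cultures are named by the end of their label (s846 and so on). Whether each is its own mouse is not stated, and p-values measure the spread between these cultures.

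CACNB3 is a β subunit of voltage-gated calcium channels that also binds the IP3 receptor, the calcium release channel of the endoplasmic reticulum. Extracellular ATP reaches that receptor through P2Y receptors and opens P2X channels directly, and the calcium signal induces immediate early genes such as *Fos* and *Nr4a1* for a short time. Mature DCs take up CCR7 and actin programs for migration. Type I interferons induce their target genes through a complex that holds STAT2 and IRF9.

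Library depth was 8237393 to 32164225 reads on genes. The medians were 20360908 and 19915605 reads in WT and 18729574 and 11986891 reads in *Cacnb3-/-* libraries named 0p5h and 24h. DC markers were abundant in all groups, with 7 of 8 genes tested. At 0p5h their summed level was 11170 to 15200 CPM in WT and 8739 to 13090 CPM in *Cacnb3-/-* libraries (CPM, counts scaled by the normalised library size). At 24h it was 11380 to 19320 CPM and 6902 to 11210 CPM, and here the genotypes did not overlap, by 11380 against 11210 CPM. *H2-Ab1*, *Ccr7* and *Fscn1* made up most of the sum. At 24h their medians were 3490, 4890 and 5950 CPM in WT and 2670, 2880 and 3690 CPM in *Cacnb3-/-*. *Dpp4* was also lower in *Cacnb3-/-* (95.2 and 87.8 CPM). *Zbtb46*, *Itgax* and *Flt3* were higher there (127, 127 and 107 CPM in WT, 169, 143 and 117 CPM in *Cacnb3-/-*). The summed level of 12 macrophage genes was 2082 to 8824 CPM in WT and 2496 to 14070 CPM in *Cacnb3-/-* libraries, and that of 13 granulocyte genes 189.6 to 787 CPM and 377 to 809.8 CPM. The part of these cells in the results was not tested. In the libraries, the slope of gene levels on GC content changed from 0p5h to 24h by -0.664 to -0.0319 per 10 percentage points in the 5 *Cacnb3-/-* cultures (log2 scale) and moved by -0.103 to 0.337 in the 5 WT cultures (exact permutation test, two-sided, p = 0.0159, Benjamini-Hochberg adjusted 0.0893 over 9 tests of library measures). The share of mitochondrial counts changed by 0.750 to 4.69 percentage points in *Cacnb3-/-* and -0.199 to 1.496 in WT cultures (exact permutation test, two-sided, p = 0.0556, adjusted 0.1). Many results are therefore also given after removal of the GC trend within libraries. Values of genes without this mention are as counted only, and may move when the trend is removed.

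Reads were counted on *Cacnb3* (ENSMUSG00000003352, GRCm38 chromosome 15, 98632220 to 98644530) in all 20 libraries. The 5 WT cultures s846, s850, s855, s856 and s864 had 1203, 1363, 1011, 1024 and 1422 CPM at 0p5h and 1271, 1609, 1301, 1920.0 and 2113 CPM at 24h. The 5 *Cacnb3-/-* cultures s843, s851, s852, s853 and s865 had 744.5, 976, 982, 1313 and 730.5 CPM at 0p5h and 573, 999, 1133, 852.6 and 1264 CPM at 24h. The genotypes overlapped at 0p5h, and at 24h all 5 WT values lay above the 5 *Cacnb3-/-* values, the nearest of which were 1271 and 1264 CPM. Counts are summed over all exons of the gene, so they do not show whether the deleted part is missing and do not check the genotype labels. The change in *Cacnb3-/-* minus that in WT was -0.43 on the log2 scale (standard error 0.23, adjusted p = 0.228, edgeR with Benjamini-Hochberg adjustment) and -0.01 with the GC trend removed.

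Of 13424 genes tested, edgeR called 1 for a different change between genotypes, *Btla*, at an adjusted p under 0.05 and at least 2-fold (0.00745% of genes tested). With the GC trend removed it called 3 (0.0223%), *Btla*, *Cxcr5* and *Tgfbi*, all with a higher change in *Cacnb3-/-* BMDCs. At an unadjusted p under 0.05, 1977 genes leaned to a higher change in *Cacnb3-/-* (14.7%) and 1840 to a lower one (13.7%). After removal of the GC trend these were 1111 (8.28%) and 994 genes (7.4%). All 5 *Cacnb3-/-* changes lay above all 5 WT changes for 247 genes (1.84%) and below them for 305 (2.27%). DESeq2, the tool that the study names, called 41 genes when run on 28015 genes without the filter on low counts, 38 of them higher (0.136% of its genes tested). On the 13424 filtered genes, a fit added after seeing the data, it called 35, of which 33 were higher (0.246%). *Btla* was not among them in either fit, since DESeq2 gave it no adjusted p. EdgeR called 252 without *Cacnb3-/-* culture s865 and 10 without WT culture s850. Without the culture number as a block, 0 genes were called and 789 had an unadjusted p under 0.05 in edgeR.

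The log2 difference of the changes ran against the GC content of the transcripts, with Spearman's rho of -0.643 across 13281 genes, which share the same libraries, and of -0.018 after removal of the trend. In the 177 genes lowest in GC content (median 36.3%) the median difference was 0.52, and in the 390 highest (median 61.4%) it was -0.40. The part of RNA composition in the leanings was not tested.

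**Figure D1:**
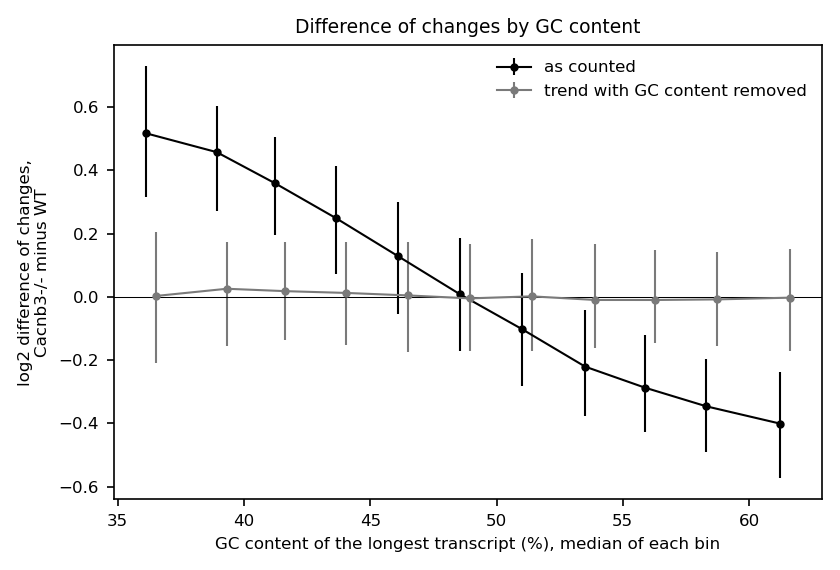
Difference of the log2 changes from 0p5h to 24h (*Cacnb3-/-* minus WT, y axis) against the GC content of the longest transcript (x axis, percent), as medians of genes in bins, with bars from the lower to the upper quartile. As counted, the median runs from 0.52 in the bin lowest in GC to -0.40 in the highest, and after removal of the trend all bins lie near 0.

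*Btla* (ENSMUSG00000052013, GRCm38 chromosome 16, 45224315 to 45252895) encodes an inhibitory receptor of the immunoglobulin family on lymphocytes and DCs that binds TNFRSF14. In the WT cultures s846, s850, s855, s856 and s864 it had 8.78, 3.51, 20.01, 7.34 and 0.726 CPM at 0p5h and 3.84, 1.59, 8.53, 3.19 and 0.324 CPM at 24h. In the *Cacnb3-/-* cultures s843, s851, s852, s853 and s865 it had 1.31, 1.25, 0.667, 1.346 and 0.681 CPM at 0p5h and 1.73, 4.28, 1.31, 3.15 and 0.966 CPM at 24h. The level went down in all 5 WT and up in all 5 *Cacnb3-/-* cultures, and 4 of the 5 WT cultures began above every *Cacnb3-/-* culture. In WT *Btla* fell by 1.19, as a log2 value (standard error 0.16, adjusted p = 0.000207, edgeR with Benjamini-Hochberg adjustment) and rose by 1.10 in *Cacnb3-/-* BMDCs (standard error 0.20, adjusted p = 0.00125, same test). The changes differed by 2.29, which is 4.90-fold (standard error 0.26, adjusted p = 0.00270, same test), and by 1.88 with the GC trend removed (adjusted p = 0.0167, same test). Without any one culture edgeR still called the gene, with an adjusted p from 0.00222 to 0.0307, and within the lanes named in the file header the difference was 2.71, 1.62 and 1.99 in lanes 1, 2 and 3, each with 1 or 2 cultures per genotype. Without the block its adjusted p was 0.680 at a log2 difference of 2.32 (edgeR with Benjamini-Hochberg adjustment), and DESeq2 with the block put the difference at 2.29 but gave no adjusted p, so the gene counts neither as called nor as lost there.

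*Btla* was the only gene called in both genotypes in opposite directions. In the libraries named ctrl, whose treatment field reads 30 min of ATP and which were not part of the test, WT cultures had 0.758 to 19.1 CPM of it and *Cacnb3-/-* cultures 0.592 to 2.30 CPM. Since B cells also carry BTLA and CXCR5, B cell markers were summed per library: 7 of 9 were tested and 0 had an unadjusted p under 0.05 for the difference of changes. *Ms4a1*, which marks B cells, had medians of 0.155 to 0.201 CPM in the 4 groups. The summed level was 17.1 to 148 CPM in WT and 33.5 to 112 CPM in *Cacnb3-/-* libraries, and the part of B cells in the *Btla* result was not tested. In such bulk libraries, fewer cells of a type and less RNA per cell cannot be told apart.

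**Figure D2:**
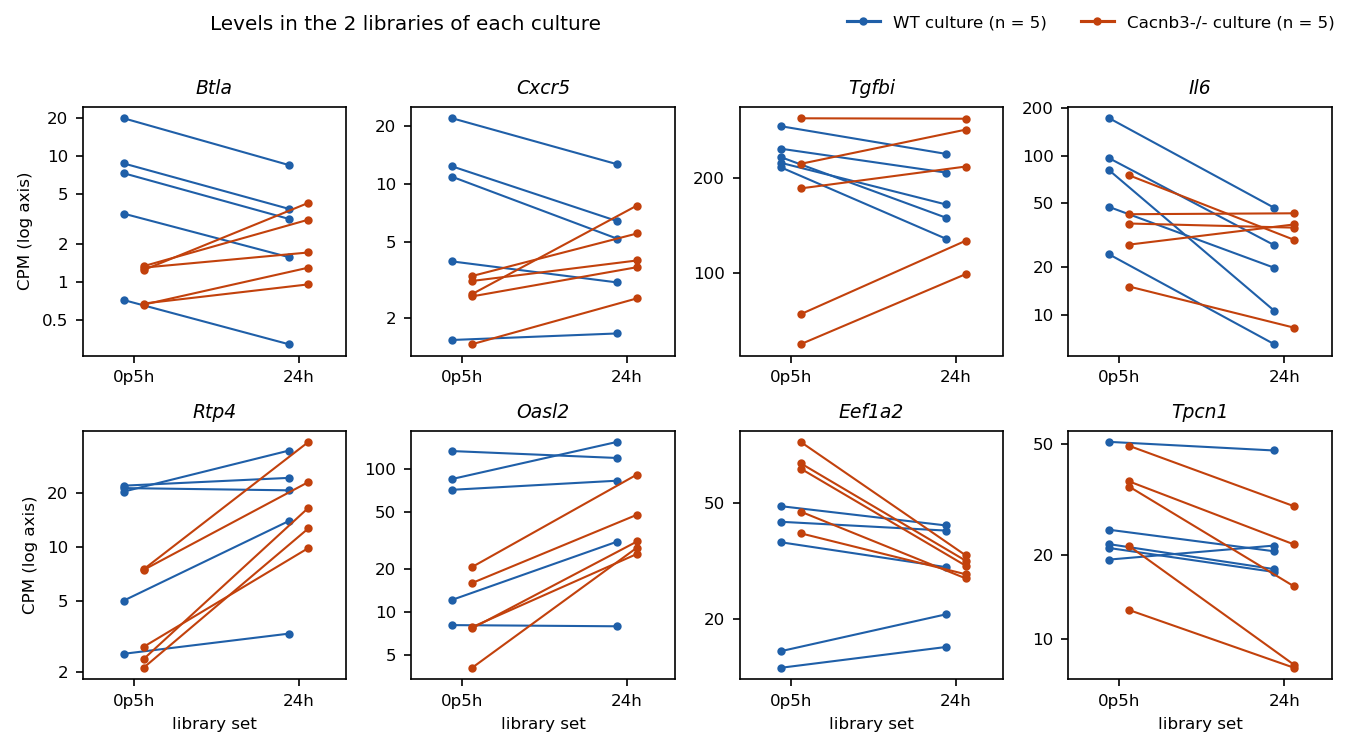
CPM (y axes, log scale) in the libraries named 0p5h and 24h (x axes) for 8 genes, with 1 line per culture (5 WT in blue, 5 *Cacnb3-/-* in orange). For *Btla*, all 5 WT lines go down and all 5 *Cacnb3-/-* lines go up, and for *Eef1a2* all 5 *Cacnb3-/-* lines go down to between 27.6 and 33.1 CPM.

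Interferon-stimulated genes had the highest median difference of the 33 lists tested. Of 55 genes tested of 58 listed, 34 had a higher change in *Cacnb3-/-* at an unadjusted p under 0.05 and 1, *Ifitm2*, had a lower one, beside 14.7% and 13.7% of all genes. The median difference was 0.56 on the log2 scale against -0.01 over all genes, and with the GC trend removed 36 leaned higher, 0 leaned lower and the median was 0.54. None of the 55 was called in the comparison of changes by edgeR in the main fit, where the smallest adjusted p was 0.106. Without *Cacnb3-/-* culture s865 edgeR called 18 of them higher (1.87% of all genes called), and with no filter 16 (0.546%). With all 30 libraries it called 3 (0.102%), and without WT culture s850 it called 2 (0.0737%). DESeq2 called 12 of them higher without the filter (0.136% of all genes it tested) and 10 with it (0.246%). It gave an adjusted p to only 9005 and 8479 genes in these fits, of which 0.455% and 0.413% were called in either direction. In *Cacnb3-/-* BMDCs 49 of the 55 were higher at 24h at an adjusted p under 0.05 (16.3% of all genes tested) and 26 also passed 2-fold (1.46%). In WT these were 15 (4.7%) and 2 (0.507%). Without the block, 2 of the 55 had an unadjusted p under 0.05 for the difference.

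*Rtp4*, a chaperone of receptors and target of interferon, had 20.3, 5.02, 21.2, 21.9 and 2.54 CPM at 0p5h and 34.4, 13.9, 20.6, 24.2 and 3.29 CPM at 24h in WT cultures s846, s850, s855, s856 and s864. In *Cacnb3-/-* cultures s843, s851, s852, s853 and s865 *Rtp4* had 7.49, 7.44, 2.37, 2.12 and 2.77 CPM at 0p5h and 38.4, 22.98, 16.5, 12.7 and 9.86 CPM at 24h. At 24h the genotypes overlapped widely, and the lowest *Cacnb3-/-* change, 1.61, lay above the highest WT change, 1.45. *Rtp4* rose by 2.18 in *Cacnb3-/-* (standard error 0.21, adjusted p = 9.58e-06, edgeR with Benjamini-Hochberg adjustment), against 0.51 in WT (standard error 0.19, adjusted p = 0.0983, same test), a difference of 1.67 (standard error 0.28, adjusted p = 0.106, same test).

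*Oasl2*, an OAS-like antiviral protein, showed the same pattern, with 8.12 to 134.5 CPM at 0p5h and 7.96 to 156 CPM at 24h in WT and with 4.08 to 20.7 and 25.6 to 92.2 CPM in *Cacnb3-/-* BMDCs. Its changes were -0.16 to 1.348 in WT and 1.58 to 2.76 in *Cacnb3-/-* cultures, and they differed by 1.56 (standard error 0.27, adjusted p = 0.106, edgeR with Benjamini-Hochberg adjustment). Of the 55 genes, 5 had changes that did not overlap between genotypes, all higher in *Cacnb3-/-* (1.84% of all genes tested): *Rtp4*, *Oasl2*, *Ifit2*, *Slfn1* and *Ddx60*. *Ifit2*, which blocks translation of viral RNA, differed by 1.81, *Ddx60*, a helicase of the RNA sensing pathway, by 1.46 and *Slfn1* by 1.21. Transcription factors of the pathway had differences of 1.34 for *Irf7*, 0.42 for *Irf9* and 0.33 for *Stat2*, or 1.61, 0.49 and 0.50 with the GC trend removed (adjusted p from 0.108 to 0.125, edgeR with Benjamini-Hochberg adjustment). Outside the list, the DNA sensor family member *Mndal* (1.29), *Slfn4* (2.06) and *Ly6i* (1.67) were among the 12 genes with the smallest p that leaned higher, and *Mndal* differed by 0.85 with the GC trend removed. Genes of the Ifit, Oas, Slfn, Gbp, Ly6 and Ifi200 families have near-identical copies, and *Mndal* shares 1.07% of its exon bases with *Ifi203*. Reads from shared stretches may therefore go uncounted or to another copy.

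The difference in change came with a difference at 0p5h. At 0p5h the mean level in *Cacnb3-/-* lay below that in WT for 53 of the 55 genes, with a median log2 ratio of -1.02. At 24h it did for 46 genes with a median of -0.48, and in the libraries named ctrl, with a treatment field of 30 min of ATP, for 55 genes with a median of -1.08. Over all genes tested these medians were 0.02, 0.01 and 0.00494 (0p5h, 24h and ctrl). The median level of the 55 genes was 38.9, 14.5, 62.0, 36.7 and 11.7 CPM at 0p5h and 69.2, 25.1, 65.1, 51.1 and 10.7 CPM at 24h in WT cultures s846, s850, s855, s856 and s864. It was 16.3, 17.1, 8.71, 8.44 and 13.3 CPM at 0p5h and 41.2, 36.4, 17.6, 27.8 and 23.6 CPM at 24h in *Cacnb3-/-* cultures s843, s851, s852, s853 and s865. WT cultures s850 and s864 were as low as *Cacnb3-/-* cultures at 0p5h. The median change was 0.62 to 1.19 in *Cacnb3-/-* and -0.03 to 0.71 in WT cultures, and the ranges overlapped.

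**Figure D3:**
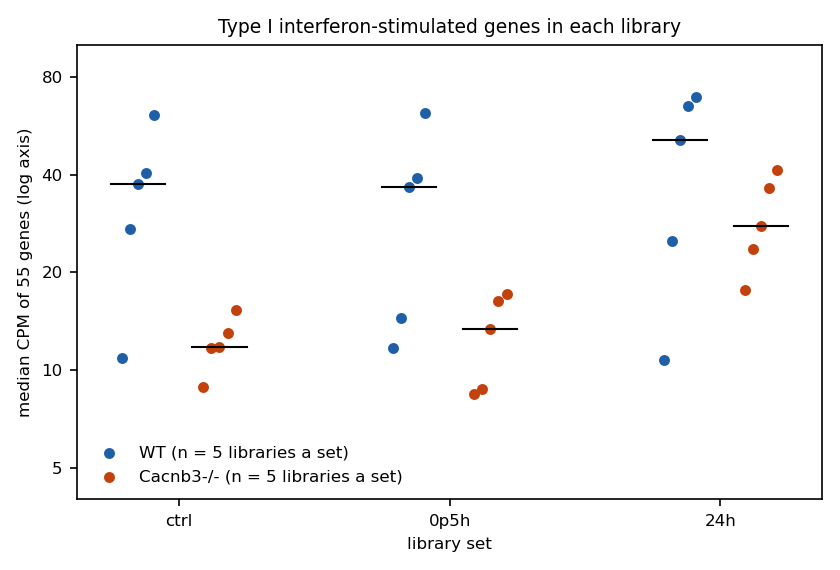
Median CPM of 55 type I interferon-stimulated genes (y axis, log scale) in each library, by library set (x axis) and genotype, with 5 libraries per point cloud and a line at their median. The *Cacnb3-/-* libraries lie between 8.44 and 17.1 CPM at 0p5h and between 17.6 and 41.2 CPM at 24h, and the WT libraries spread from 10.7 to 69.2 CPM over these sets.

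Promoters of these genes were searched on both strands for GAAA and GAAA parted by any NN, 10 bases in all, a short form of the interferon-stimulated response element. RefSeq promoters on GRCm38.p6, from 250 bases before to 50 bases after the gene start, were found for 43 of the 55 genes. Of these 24 held the motif (55.8%), against 3.9% of 9999 tested genes with a promoter and 3.44% of all 32851 promoters in the table. The list was made of interferon targets, so this share does not bear on the difference between genotypes. The motif was in 17 of 28 genes that leaned higher in *Cacnb3-/-* and in 7 of the 15 others. The promoters of *Ddx60* (chr8:61927837-61928136, forward strand), *Slfn8* (chr11:83020761-83021060, reverse strand, the first of 2 listed) and *Mndal* (chr1:173880138-173880437, reverse strand, the first of 2 listed) are shown since these genes are among the 12 that lean highest by p and hold the motif, which is in capitals. That of *Btla* (chr16:45224087-45224386, forward strand) is shown as the called gene and holds 0 matches in this window.
*Ddx60*: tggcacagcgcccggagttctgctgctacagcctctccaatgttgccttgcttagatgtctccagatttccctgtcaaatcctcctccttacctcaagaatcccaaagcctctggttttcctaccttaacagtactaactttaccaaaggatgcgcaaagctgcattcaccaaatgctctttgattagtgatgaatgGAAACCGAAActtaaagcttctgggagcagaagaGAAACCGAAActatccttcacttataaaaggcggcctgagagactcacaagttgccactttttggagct
*Slfn8*: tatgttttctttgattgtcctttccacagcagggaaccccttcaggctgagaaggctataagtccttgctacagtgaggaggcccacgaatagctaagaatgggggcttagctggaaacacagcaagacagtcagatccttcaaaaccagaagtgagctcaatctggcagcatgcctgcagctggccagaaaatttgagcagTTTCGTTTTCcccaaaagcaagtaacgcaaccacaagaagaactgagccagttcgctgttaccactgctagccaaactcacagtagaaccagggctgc
*Mndal*: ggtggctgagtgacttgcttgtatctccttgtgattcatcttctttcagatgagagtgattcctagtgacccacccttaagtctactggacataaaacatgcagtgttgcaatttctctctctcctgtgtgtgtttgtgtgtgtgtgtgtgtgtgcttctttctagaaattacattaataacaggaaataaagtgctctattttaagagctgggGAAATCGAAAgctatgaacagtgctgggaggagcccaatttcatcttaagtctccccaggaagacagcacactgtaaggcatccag
*Btla*: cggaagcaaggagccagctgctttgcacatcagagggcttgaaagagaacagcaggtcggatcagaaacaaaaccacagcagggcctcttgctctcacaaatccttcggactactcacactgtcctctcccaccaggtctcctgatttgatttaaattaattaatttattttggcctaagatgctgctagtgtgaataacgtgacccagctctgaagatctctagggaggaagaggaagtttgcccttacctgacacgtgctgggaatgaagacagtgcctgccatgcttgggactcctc

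Receptors for chemokines and chemoattractants guide DCs and monocytes. Of 22 tested, 6 leaned higher in *Cacnb3-/-* and 2 lower (median 0.13), beside 14.7% and 13.7% of all genes. With the GC trend removed 6 leaned higher and 1 lower (median 0.11), beside 8.28% and 7.4%. *Cxcr5*, the CXCL13 receptor of follicles (chromosome 9, 44511788 to 44556391), had 10.8, 3.94, 21.8, 12.3 and 1.54 CPM at 0p5h and 5.17, 3.07, 12.6, 6.38 and 1.67 CPM at 24h in WT cultures s846, s850, s855, s856 and s864. In *Cacnb3-/-* cultures s843, s851, s852, s853 and s865 *Cxcr5* had 3.12, 2.60, 2.67, 3.31 and 1.47 CPM at 0p5h and 3.99, 3.68, 7.69, 5.51 and 2.54 CPM at 24h. It was higher at 24h in 5 of 5 *Cacnb3-/-* and lower in 4 of 5 WT cultures, and the difference of changes was 1.49 (standard error 0.25, adjusted p = 0.106, edgeR with Benjamini-Hochberg adjustment) and 1.68 with the GC trend removed, where it was called (adjusted p = 0.0405, same test). The monocyte receptors *Ccr2* and *Ccr1* differed by 0.94 and 0.86 as counted and by 0.52 and 0.42 with the trend removed. *Ccr7*, which leads migratory DCs to lymph nodes, leaned the other way with a difference of -0.32 and -0.10 with the trend removed.

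*Tgfbi*, a secreted matrix protein induced by TGF-β (chromosome 13, 56609603 to 56639339), had 234, 224, 249, 294 and 217 CPM at 0p5h and 149.9, 165, 209, 239.6 and 128 CPM at 24h in WT cultures s846, s850, s855, s856 and s864. In *Cacnb3-/-* cultures s843, s851, s852, s853 and s865 *Tgfbi* had 186, 223, 59.1, 73.7 and 311 CPM at 0p5h and 218, 286, 98.9, 126 and 310.2 CPM at 24h. All 5 WT values went down, 4 of 5 *Cacnb3-/-* values went up, and culture s865 went from 311 to 310.2 CPM. *Tgfbi* fell by 0.48 in WT and rose by 0.42 in *Cacnb3-/-* BMDCs (adjusted p = 0.0124 and 0.0123, edgeR with Benjamini-Hochberg adjustment). The changes differed by 0.89 (standard error 0.16, adjusted p = 0.106, edgeR with Benjamini-Hochberg adjustment) and by 1.09 with the GC trend removed, where the gene was called (adjusted p = 0.0405, same test).

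Of 26 cytokine genes tested, 6 leaned higher in *Cacnb3-/-* and 1 lower (median 0.24), beside 14.7% and 13.7% of all genes. With the GC trend removed 4 leaned higher and 0 lower (median 0.26), beside 8.28% and 7.4%. *Il6*, an inflammatory cytokine, had 96.1, 47.48, 171, 80.6 and 23.9 CPM at 0p5h and 27.3, 19.7, 46.9, 10.6 and 6.53 CPM at 24h in WT cultures s846, s850, s855, s856 and s864. In *Cacnb3-/-* cultures s843, s851, s852, s853 and s865 *Il6* had 37.4, 27.6, 75.1, 42.8 and 15.03 CPM at 0p5h and 35.2, 36.9, 29.5, 43.4 and 8.29 CPM at 24h. *Il6* fell by 1.93 in WT (standard error 0.23, adjusted p = 8.98e-05, edgeR with Benjamini-Hochberg adjustment), against -0.35 in *Cacnb3-/-* BMDCs (standard error 0.23, adjusted p = 0.245, same test), where cultures s852 and s865 went down and the other 3 changed by -0.09 to 0.42. The difference was 1.58 (standard error 0.32, adjusted p = 0.108, same test) and 1.14 with the trend removed.

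Prostaglandin and leukotriene genes had 5 of 19 that leaned higher and 2 lower (median 0.24), beside 14.7% and 13.7% of all genes. With the GC trend removed 6 leaned higher and 1 lower (median 0.21), beside 8.28% and 7.4%. *Ptgs2*, the inducible cyclooxygenase, fell, with a change of -4.19 in WT (standard error 0.50, adjusted p = 8.91e-05, edgeR with Benjamini-Hochberg adjustment) and of -1.73 in *Cacnb3-/-* BMDCs (standard error 0.46, adjusted p = 0.0120, same test). The changes of *Ptgs2* were -5.76 to -2.97 in WT and -4.26 to -0.37 in *Cacnb3-/-* cultures, which overlap, and differed by 2.46 (standard error 0.66, adjusted p = 0.108, same test). *Ptges*, the synthase that follows it, differed by 1.23.

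In WT, 68 genes were called higher at 24h than at 0p5h (0.507%) and 194 lower (1.45%). In *Cacnb3-/-* BMDCs these counts were 196 (1.46%) and 234 (1.74%). Of the genes called lower, 112 were called in both genotypes, 57.7% of those in WT and 47.9% of those in *Cacnb3-/-*, and of those called higher 24 were (35.3% and 12.2%). Of 59 immediate early and activity genes tested, 26 were called lower in WT and 28 in *Cacnb3-/-* BMDCs, with medians of -0.87 and -0.92. *Fosb* fell, with a change of -6.06 in WT (standard error 0.50, adjusted p = 1.87e-06, edgeR with Benjamini-Hochberg adjustment) and of -8.21 in *Cacnb3-/-* (standard error 0.59, adjusted p = 5.83e-07, same test). *Fos* fell too, with -3.27 and -2.84, as did *Nr4a1* with -4.07 and -5.74 (WT and *Cacnb3-/-*). In the comparison of changes 8 of the 59 leaned higher and 5 lower, beside 14.7% and 13.7% of all genes. *Egr3* stood at -3.58 and *Fosb* at -2.15 on one side, and *Socs3* at 0.66 and *Areg* at 0.63 on the other. Over alternative fits *Egr3* ran from -4.06 to -1.60 and *Fosb* from -2.92 to -1.22. *Egr3* had 0 to 2.83 CPM in the libraries named ctrl, which were not part of the test. With the GC trend removed 13 of the 59 leaned higher and 3 lower, beside 8.28% and 7.4%.

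**Figure D4:**
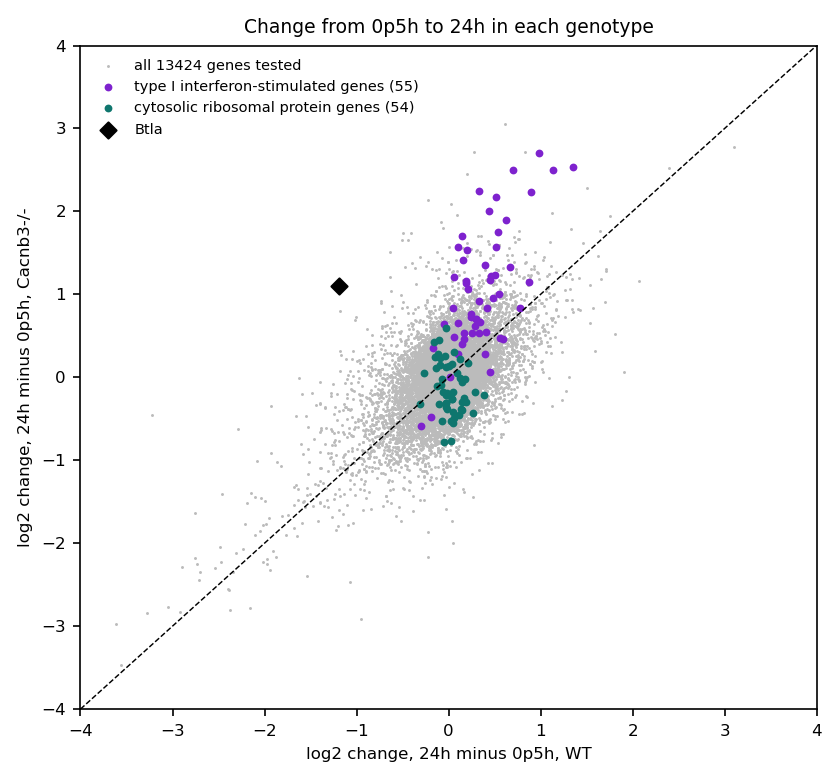
Log2 change from 0p5h to 24h in WT (x axis) and in *Cacnb3-/-* BMDCs (y axis) for all 13424 genes tested, with interferon-stimulated genes in purple, ribosomal protein genes in green and *Btla* as a black diamond, and with 5 genes outside the axes. Of the purple points, 48 of 55 lie above the line of equal change, and *Btla* lies at -1.19 and 1.10.

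*Eef1a2*, an elongation factor of translation (chromosome 2, 181147653 to 181157014), had the smallest p of the genes that leaned lower among those with a mean of at least 5 CPM. In WT cultures s846, s850, s855, s856 and s864 it had 43.2, 36.7, 13.6, 15.6 and 48.8 CPM at 0p5h and 40.3, 30.2, 16.1, 20.8 and 42.0 CPM at 24h. In *Cacnb3-/-* cultures s843, s851, s852, s853 and s865 *Eef1a2* had 68.5, 65.7, 46.8, 81.1 and 39.4 CPM at 0p5h and 31.8, 30.6, 27.6, 33.1 and 28.5 CPM at 24h. *Eef1a2* went down in all 5 *Cacnb3-/-* cultures, from levels above the WT median to levels within the WT range. It fell by 0.94 in *Cacnb3-/-* BMDCs (adjusted p = 0.000103, edgeR with Benjamini-Hochberg adjustment) with a difference of -0.94 to WT (standard error 0.17, adjusted p = 0.107, same test) and of -0.87 with the GC trend removed.

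*Tpcn1*, a two-pore calcium and sodium channel of endolysosomes (chromosome 5, 120534160 to 120588613), had the next smallest p. It had 24.6, 21.2, 19.2, 50.9 and 21.9 CPM at 0p5h and 20.6, 17.4, 21.6, 47.4 and 17.8 CPM at 24h in WT cultures s846, s850, s855, s856 and s864. In *Cacnb3-/-* cultures s843, s851, s852, s853 and s865 *Tpcn1* had 36.7, 35.2, 12.7, 21.5 and 49.3 CPM at 0p5h and 21.8, 15.4, 7.87, 8.06 and 29.9 CPM at 24h. It fell in *Cacnb3-/-* BMDCs (adjusted p = 5.58e-05, edgeR with Benjamini-Hochberg adjustment), and the difference to WT was -0.80 (standard error 0.16, adjusted p = 0.107, same test) and -0.51 with the GC trend removed. *Gdf15*, a stress-induced cytokine, rose in WT from 0.561 to 3.17 CPM at 0p5h to 1.71 to 7.55 CPM at 24h, with changes of 1.09 to 1.68, against -0.86 to 0.63 in *Cacnb3-/-* cultures (log2 difference -1.30, adjusted p = 0.108, same test).

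Genes picked by p from these same culture changes tend not to overlap between genotypes, so a lack of overlap in them is no separate support. Among the 12 genes with the smallest p that leaned lower, others also had changes that did not overlap between genotypes (2.27% of all genes tested). They included *Pafah1b3*, a platelet-activating factor hydrolase subunit (-0.53), *Edc4*, a scaffold of mRNA decapping (-0.65), *Fbxo31*, a ubiquitin ligase subunit (-0.51), *Dctn1*, a dynactin subunit (-0.66), *Pi4ka*, a phosphatidylinositol kinase (-0.52), *Itpk1*, an inositol phosphate kinase (-0.49), and *Cln6*, a protein of the endoplasmic reticulum (-0.41). Their adjusted p were 0.108 by edgeR with Benjamini-Hochberg adjustment. With the GC trend removed the differences were -0.28 for *Pafah1b3*, -0.35 for *Edc4*, -0.15 for *Fbxo31*, -0.30 for *Dctn1*, -0.24 for *Itpk1* and -0.12 for *Cln6*, and -0.49 for *Pi4ka*. *Dctn1* was parted only by -0.1749 in *Cacnb3-/-* culture s865 against -0.1748 in WT culture s850. *Zfp385a* and *Rnf113a1* did not overlap either, with highest *Cacnb3-/-* changes of -0.36 and -0.22 and lowest WT changes of -0.30 and 0.12. *Vcam1*, an adhesion molecule, leaned higher by 0.75 and by 0.37 with the trend removed.

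Of 29 genes of glycolysis and glucose transport tested, 0 leaned higher and 9 lower (median -0.29), beside 14.7% and 13.7% of all genes. After removal of the trend 0 leaned higher and 4 lower (median -0.12), beside 8.28% and 7.4%. At an adjusted p under 0.05, 13 of the 29 were lower at 24h in WT (6.48% of all genes tested) and 21 in *Cacnb3-/-* BMDCs (16.2%). *Hk1*, the first enzyme of the path, differed by -0.53, *Gpi1* by -0.49, *Pkm* by -0.50 and *Gapdh* by -1.02, and with the trend removed these were -0.23, -0.34, -0.39 and -0.79. *Gpi1* shares 16.5% of its exon bases with a gene on the other strand.

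Of 54 ribosomal protein genes tested, 5 leaned higher and 16 lower (median -0.19), beside 14.7% and 13.7% of all genes. On the scale without the GC trend 1 leaned higher and 17 lower (median -0.16), beside 8.28% and 7.4%. The symbols that made the list also took in *Rps6ka3* and *Rps6ka5*, which encode kinases and are 2 of the 5 that leaned higher, and without them the counts over 52 genes were 3 and 16. *Rplp0* differed by -0.54 and *Rpl6* by -0.55, each with changes that did not overlap. Of 47 nuclear genes of the respiratory chain, 3 leaned higher and 11 lower (median -0.12, and -0.15 with the trend removed, where 3 leaned higher and 9 lower). Of 8 genes encoded by mitochondria, 0 leaned either way, 7 had a difference above 0, and the median was 0.33 as counted and -0.15 with the trend removed.

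Several lists moved with GC content. Their counts stand beside 14.7% of all genes leaning higher and 13.7% lower as counted, and 8.28% and 7.4% after removal. Of 261 Zfp genes, which encode zinc finger proteins and have a median of 44% GC, 73 leaned higher and 20 lower (median 0.19), and 18 and 14 with the trend removed (median 0.03). Of 66 splicing and RNA-binding genes, 24 leaned higher and 4 lower (median 0.21), and 10 and 5 with the trend removed (median 0.12). *Srsf7*, a splicing factor, differed by 0.59 as counted and by 0.16 after removal. Of 30 Toll-like and C-type lectin receptors, 10 leaned higher and 1 lower (median 0.34), and 6 and 2 after removal (median 0.09). *Tlr3*, a sensor of double-stranded RNA that interferon induces, differed by 1.20 and by 0.88 after removal, and its changes did not overlap as counted. Of 15 inflammasome genes 5 leaned higher and 0 lower (median 0.28), and 1 and 2 after removal (median 0.13), and of 30 genes of the integrated stress response 1 leaned higher and 7 lower (median -0.23), and 1 and 3 after removal (median -0.09).

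**Figure D5:**
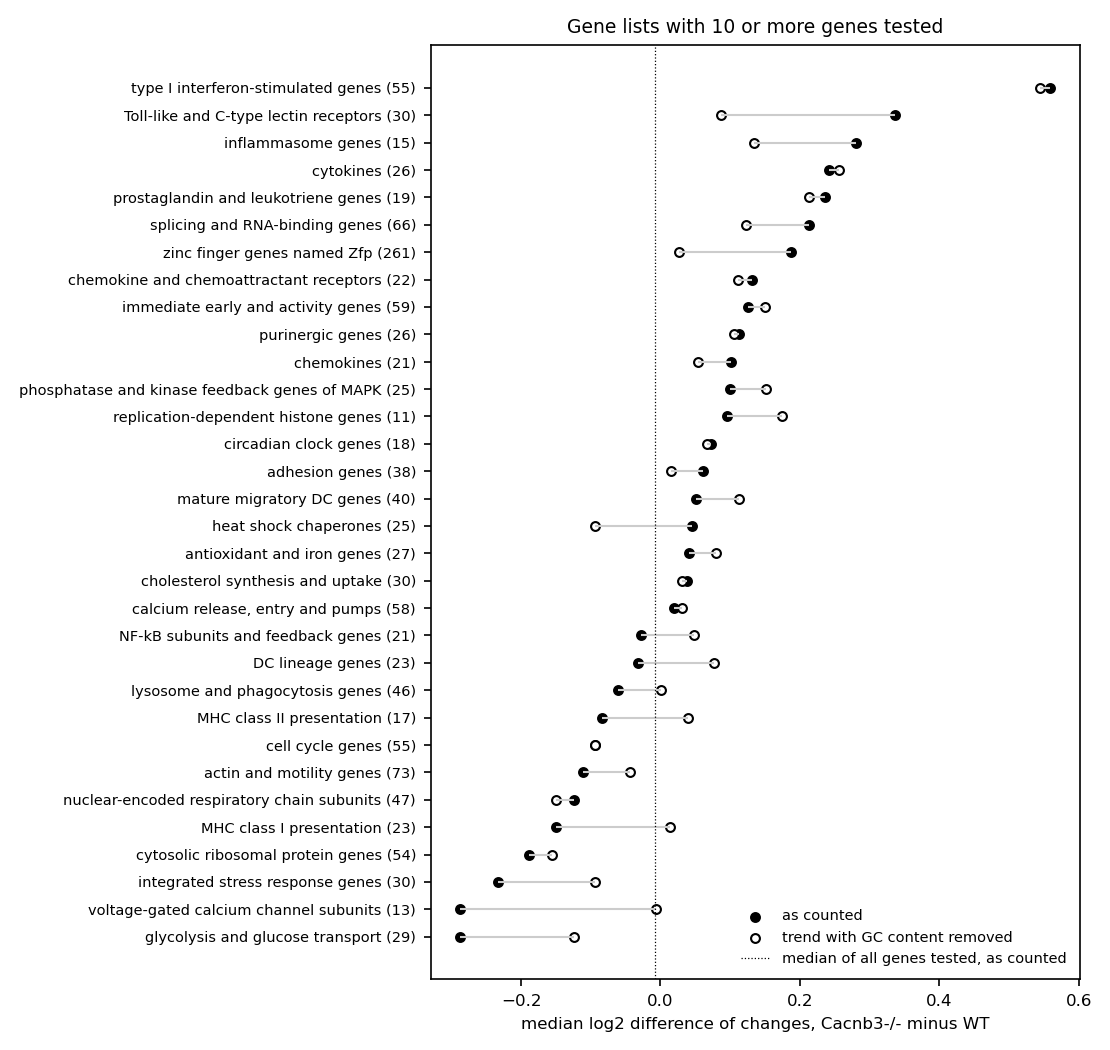
Median log2 difference of the changes (*Cacnb3-/-* minus WT, x axis) of 32 gene lists with 10 or more genes tested (y axis, number tested in brackets), as counted (filled) and with the trend with GC content removed (open). The interferon-stimulated genes stand at 0.56 and 0.54, and the lists of Toll-like receptors and Zfp genes drop from 0.34 and 0.19 to 0.09 and 0.03.

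Calcium channels and ATP receptors stand closest to the role of CACNB3. Their counts stand beside 14.7% of all genes leaning higher and 13.7% lower as counted, and 8.28% and 7.4% with the GC trend removed. Of 58 genes for calcium release, entry and pumps, 9 leaned higher and 7 lower (median 0.02), and 6 and 2 with the GC trend removed. *Itpr3*, a receptor for IP3, differed by -0.53 (standard error 0.20, adjusted p = 0.123, edgeR with Benjamini-Hochberg adjustment) and by -0.22 with the trend removed, *Itpr1* by 0.18 and *Itpr2* by 0.21. Of 13 subunits of voltage-gated calcium channels 0 leaned higher and 3 lower (median -0.29), and 1 and 0 with the trend removed (median -0.01). Of 26 purinergic genes 7 leaned higher and 1 lower (median 0.11 on both scales). *P2ry14*, a receptor for UDP-sugars, differed by 0.78, and by 0.35 with the trend removed, and *Adora2b*, an adenosine receptor, by 1.08, while the ATP-gated channels *P2rx4* and *P2rx7* differed by -0.22 (standard error 0.13) and 0.00278 (standard error 0.23).

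Of 38 adhesion genes 7 leaned higher and 6 lower (median 0.06), and of 73 actin and motility genes 14 leaned higher and 17 lower (median -0.11). With the GC trend removed the counts were 5 and 2 for adhesion genes and 6 and 9 for actin and motility genes. Of all genes, 14.7% leaned higher and 13.7% lower as counted, and 8.28% and 7.4% with the trend removed. *Zyx* of focal adhesions and the actin regulator *Coro1a* differed by -0.65 and -0.72, and *Actn1*, an actin crosslinker, by 0.44. Without the GC trend these were -0.40, -0.38 and 0.54. *Itgam* and *Cd44* differed by 0.26 and 0.40 (standard errors 0.17 and 0.19), and by 0.25 and 0.20 with the trend removed. Of 40 genes of mature migratory DCs, 12 leaned higher and 3 lower (median 0.05). With the GC trend removed, 8 leaned higher and 0 lower (median 0.11). *Birc3*, an inhibitor of cell death, differed by 0.49. *Arc*, *Relb* and *Ccr7* of this list went the other way. Over alternative fits they ran from -0.79 to -0.22, -0.51 to -0.13 and -0.39 to -0.10. *Plet1* fell, with changes of -2.75 in WT and -1.63 in *Cacnb3-/-* BMDCs (adjusted p = 1.49e-06 and 0.000149, edgeR with Benjamini-Hochberg adjustment), a difference of 1.12 (standard error 0.31, adjusted p = 0.108, same test), and *Il1rl2* fell by 1.13 in WT and differed by 0.77.

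The lists left had medians between -0.15 and 0.10 as counted and between -0.09 and 0.17 with the trend removed. They were NF-kB genes (4 higher and 5 lower of 21), chemokines (2 and 1 of 21), DC lineage genes (4 and 4 of 23), MHC class II (2 and 3 of 17) and class I presentation (5 and 4 of 23), and cholesterol genes (4 and 6 of 30). The others were heat shock chaperones (5 and 7 of 25), antioxidant and iron genes (6 and 5 of 27), lysosomal genes (6 and 6 of 46), cell cycle genes (3 and 10 of 55), histones (2 and 1 of 11), feedback genes of MAPK (4 and 4 of 25) and clock genes (3 and 2 of 18). Of all genes, 14.7% leaned higher and 13.7% lower. With the GC trend removed these were 8.28% and 7.4%. The counts were then 2 and 0 for NF-kB genes, 1 and 2 for chemokines and 4 and 2 for DC lineage genes. For MHC class II they were 2 and 0, for class I 5 and 0. Cholesterol genes had 2 and 1, heat shock chaperones 4 and 3. Antioxidant and iron genes had 5 and 1, lysosomal genes 5 and 2 and cell cycle genes 1 and 6. Histones had 3 and 0, feedback genes of MAPK 7 and 2 and clock genes 1 and 0. Markers of other cell types had 0 to 2 leaning genes per list in either direction, of 1 to 13 tested, and 0 of 9 erythroid genes were tested.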

How the data were processed

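Reads were counted by the authors, who deposited raw counts of 43629 genes in 30 libraries, without normalization. Per the header, featureCounts 1.5.1 summed exons per gene (Ensembl release 79, GRCm38) from alignments of read 1, and strand, multimapping, overlap and pair options were not set. The labels name STAR 2.4 and mm10, and the study's methods GRCm39 and paired-end reads. Symbols and GC content came from GENCODE M39 (89.5% of identifiers matched).

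Groups followed library names and genotype labels. R 4.3.3 and edgeR 4.0.16 (TMM, filterByExpr, quasi-likelihood test, Benjamini-Hochberg adjustment) fitted the interaction of genotype and set in 20 libraries with the culture number as a block. Deviations from group means were correlated within 10 of 10 same-numbered pairs (correlation 0.431 to 0.828, median 0.641, against -0.222 for other numbers), so the numbers were taken to pair them. Leaning means an unadjusted p under 0.05, and called an adjusted p under 0.05 and 2-fold. Culture changes used log2 CPM with a prior count of 2. The GC trend of each library was removed by lowess (span 0.3) as an offset, with 98.9% of tested genes having a value. The methods were tested on simulated data.

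Named were *Cacnb3*, called genes, per direction the 12 smallest p among genes with a mean of at least 5 CPM and a gene name, per list 2 members per direction and 12 genes treated before, and any other gene in the text was picked with its values in view. The genes, the 33 gene lists and the 10 marker lists were chosen with earlier results of these data known. Alternatives were DESeq2 1.42.0 (all genes with a count, its own independent filtering), limma 3.58.1, DESeq2 size factors, no filter, no block, all 30 libraries, no genes of X and Y, the GC trend, no fold minimum and each culture left out. Fits with set by lane terms and with DESeq2 on the filtered genes were added after seeing the data. Some items are not reported here.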

Additional observations from a re-analysis of the deposited data

Results flagged for a closer look

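The change of *Btla* from 0p5h to 24h differed between genotypes by 2.29 on the log2 scale.

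Among 294 groups of 5 culture changes, 19 had 1 culture apart from the other 4 by Dixon's test. Chance flags about 1 in 20 independent groups, while 14 of the 19 were WT culture s856. This culture also had the highest change of the GC slope (0.337) and the lowest change of the mitochondrial share (-0.199 percentage points) of the 10 cultures. In that culture the change of *Zfp455* was -0.49, of *Gdf15* 1.68, of *Mvk* 0.68, of *Atp5f1d* 0.60, of *Nr1d2* 0.049 and of *Gaa* 0.35. Its changes of *Ptges2*, *Cdkn1b*, *Chordc1*, *Relb* and *Psmb8* were 0.99, -2.01, -0.58, 0.82 and 0.68, and those of *mt-Nd1*, *P2rx4* and *P2rx7* were -0.69, 0.51 and 0.79. *Slfn4* changed by 1.36 in WT culture s850 and *Scarb1* by -0.59 in WT culture s846. In *Cacnb3-/-* culture s865, *Marchf1* changed by -0.61, *Spred2* by -1.37 and *Camk2d* by 0.013.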

How the results depend on the processing

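Of 2984 alternative values for named genes, 2567 kept their direction and side of the threshold, 400 passed it only in the alternative, 1 no longer passed it and 16 turned direction. Only *Btla* passed the threshold as reported. For all other named genes, keeping the side means staying not called, so the count does not measure how firm their differences are. The number of genes called for a different change was 1 as reported, 3 with the GC trend removed, 41 with DESeq2 on 28015 genes without the filter, 35 with DESeq2 on the 13424 filtered genes, 153 with edgeR and no filter, 14 with all 30 libraries, 4 with set by lane terms and 1 to 252 with a culture left out. Genes leaning higher and lower were 1111 and 994 with the GC trend removed, and 1165 to 2716 and 1233 to 2433 with a culture left out. Changes that did not overlap were 129 higher and 187 lower with the GC trend removed. With a culture left out, calls within a genotype numbered 213 to 277 (WT) and 383 to 500.0 (*Cacnb3-/-*). DESeq2 gave *Btla* no adjusted p in either fit. The causes were not tested.

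Without the culture number as a block, 0 genes were called in the comparison of changes (*Btla* 2.32, adjusted p = 0.680, edgeR), 416 leaned higher and 373 lower, and 85 and 110.0 were called within WT and *Cacnb3-/-*. The difference of *P2rx7*, 0.00278, turned to -0.055 without the block, -0.015 with voom, -0.021 with no filter, -0.0100 with all 30 libraries, -5.6e-05 without genes of X and Y and -0.136 with lane terms, and was -0.115 to 0.225 with a culture left out. With the GC trend removed *Hsf2* turned to -0.082, *Birc2* to -0.012, *Plcb3* to 0.024 and *Chordc1* to -0.13. *Cacnb3-/-* libraries at 24h had the lowest depth, which limits low genes.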
